A study of Mus musculus with 15 samples.

Results

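The variable segments of the immunoglobulin loci were followed in whole blood of 15 mice. Members were all genes named as an Ighv (heavy chain), Igkv (kappa light chain) or Iglv (lambda light chain) segment that held at least 20 counts summed over the 15 libraries. Of 55416 genes in the files, 346 were annotated as such segments and 192 were members, namely 94 Ighv, 95 Igkv and 3 Iglv segments. The members held 48767 counts, of which 15610 lay on Ighv, 28697 on Igkv and 4460 on Iglv segments. By annotation 183 members were functional and 9 were pseudogenes, and the pseudogenes held 0.79% of the member counts. The other 154 segments, 121 of them pseudogenes, fell below the minimum, and 86 of these were at 0 in every library. The members were thus chosen by their measured summed counts, which are a description without a test. Just below the minimum lay Igkv14-126-1 with 19 counts and Ighv1-70 and Igkv18-36 with 18 each. Just above it lay Igkv5-37 and Ighv1-38 with 20 each and Igkv4-62, Ighv8-5 and Ighv1-41 with 21 each.

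The study asked how the timing of neck dissection (ND), the surgical removal of the lymph nodes that drain the tongue, bears on immunity under immune checkpoint therapy. Wild-type C57BL/6 mice, female and a few weeks old by the study's methods, received 4MOSC1 cells, a mouse oral squamous cell carcinoma line, into the tongue. The labels give this transplantation and 10 days of tumour growth for all 3 groups. The early ND group (n = 5) and the late ND group (n = 5) received 2 doses of αCTLA-4, an antibody that blocks the inhibitory T cell receptor CTLA-4, and then the early or the late operation. The untreated group (n = 5) received neither antibody nor surgery, so that antibody and surgery cannot be told apart in any comparison with it, and no group received the antibody without a labelled operation. The study's text places the blood sampling after the late operation and a figure legend places it before, so "late ND" is used here as the name of a group. Blood was taken by cheek bleed with 1 library per mouse, and read pairs of 150 bases were counted per gene.

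For its heavy and for its light chain, a B cell joins a variable segment to a joining segment, in the heavy chain with a diversity segment between them. From then on it transcribes the joined segment with the constant region. The mix of variable segments in blood RNA therefore depends on which segments the circulating B cells and plasma cells carry. An expanded B cell clone raises the share of its own segment, and a plasma cell contributes far more immunoglobulin RNA than a resting B cell. The recombinase cuts at a conserved heptamer and nonamer that follow the segment, which are separated by a spacer of about 12 bases at kappa segments and about 23 at heavy and lambda segments. The octamer, a motif read by the factors Oct-1 and Oct-2, precedes many of these segments.

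The ends of the segments that led each class are shown because the counts below belong to them. Each line gives the last 30 bases of the segment in lower case, followed by the heptamer in capitals, the spacer in lower case and the nonamer in capitals, read from the GRCm39 genome. Ighv1-26 at chr12:114751954-114752021 (minus strand) and Ighv9-3 at chr12:114104274-114104341 (minus) held the largest mean shares of Ighv. Igkv1-117 at chr6:68098782-68098839 (plus), Igkv10-96 at chr6:68608919-68608976 (minus) and Igkv1-110 at chr6:68248222-68248279 (plus) held the largest of Igkv. The lambda members were Iglv1 at chr16:18903728-18903796, Iglv2 at chr16:19079112-19079180 and Iglv3 at chr16:19059918-19059986, all on the minus strand.
Ighv1-26: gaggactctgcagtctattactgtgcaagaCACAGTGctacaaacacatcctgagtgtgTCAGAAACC
Ighv9-3: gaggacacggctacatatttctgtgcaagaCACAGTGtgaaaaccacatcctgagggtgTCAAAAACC
Igkv1-117: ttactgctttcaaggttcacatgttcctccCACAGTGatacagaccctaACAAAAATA
Igkv10-96: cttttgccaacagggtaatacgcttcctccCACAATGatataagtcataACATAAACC
Igkv1-110: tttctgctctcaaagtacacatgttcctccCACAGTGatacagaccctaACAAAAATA
Iglv1: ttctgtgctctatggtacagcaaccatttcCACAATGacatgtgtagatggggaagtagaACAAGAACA
Iglv2: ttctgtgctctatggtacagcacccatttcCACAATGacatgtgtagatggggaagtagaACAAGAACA
Iglv3: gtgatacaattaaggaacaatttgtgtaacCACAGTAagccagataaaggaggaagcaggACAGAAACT

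The spacer was allowed to be 1 base shorter or longer than usual, and the length giving the nonamer nearest ACAAAAACC was kept. So chosen, it had 22 bases in Ighv1-26 and Ighv9-3, 12 in the 3 Igkv segments and 23 in the lambda segments. The usual length was kept in 41 of 90 functional Ighv and 89 of 90 functional Igkv members. The heptamer CACAGTG stood unaltered directly after the segment in 69 of 90 functional Ighv members, in 79 of 90 functional Igkv members and in 0 of 3 Iglv members. With the spacer chosen in this way, a nonamer within 2 mismatches of ACAAAAACC followed in 64, 89 and 3 of the functional Ighv, Igkv and Iglv members. Igkv1-117 and Igkv1-110 carried the same heptamer, spacer and nonamer, and 303 of their 313 exon bases were identical (96.8%). Iglv1 and Iglv2 shared 296 of 305 exon bases (97.0%) and also carried one recombination signal between them. Iglv1 and Iglv3 shared 54.0% of their bases.

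The octamer ATGCAAAT, searched on both strands within the 250 bases before the annotated start, was present before 73 of 90 functional Ighv members, 66 of 90 functional Igkv members and 3 of 3 Iglv members. The same search found it before 330 of 21770 protein-coding gene starts, or 1.52%. In the direction of transcription it read ATGCAAAT before all 73 Ighv members, and ATTTGCAT, its reverse complement, before 64 of the 66 Igkv members, with both readings before the other two. Among functional segments under the 20-count minimum it was present before 17 of 23 Ighv and 6 of 10 Igkv segments. Windows of 40 bases around it are shown for the leading segments that have one, with the octamer in capitals. They lie at chr12:114104829-114104868 for Ighv9-3, chr6:68609484-68609523 for Igkv10-96, chr16:19060503-19060542 for Iglv3 and chr16:18904292-18904331 for Iglv1, all on the minus strand. The window of Iglv2 at chr16:19079676-19079715 had the same letters as that of Iglv1.
Ighv9-3: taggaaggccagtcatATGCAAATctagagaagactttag
Igkv10-96: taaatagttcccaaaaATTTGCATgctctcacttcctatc
Iglv3: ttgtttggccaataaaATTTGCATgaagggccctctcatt
Iglv1: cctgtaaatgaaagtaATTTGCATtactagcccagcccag

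These octamers began 110 bases before the annotated start in Ighv9-3, 81 in Igkv10-96, 86 in Iglv3, 65 in Iglv1 and 90 in Iglv2. The exact letters did not occur in this window of Ighv1-26, Igkv1-117 or Igkv1-110. The segments with the largest share in the heavy and in the kappa class were thus both without an exact octamer in the window, and those in second place had one.

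Libraries differed in depth and composition. Total gene counts were 5862888 to 10796099 in untreated, 5527108 to 7182346 in early ND and 7849602 to 13924361 in late ND mice, so every late ND library was deeper than every early ND library. Counts on variable segments ran from 957 in early 4 to 11381 in late 2. Hemoglobin genes, from red cells, took 48.4% ± 12.7 (SD, n = 5) of counts in untreated, 48.5% ± 10.4 in early ND and 22.0% ± 6.73 in late ND mice. The 18S ribosomal gene Rn18s-rs5 was low, at 313 to 766 CPM (counts scaled by the library total), in the 3 libraries untreated 2, late 2 and late 3. The tissue label was met by the erythroid and neutrophil genes. The keratinocyte and gland genes that a cheek bleed can carry summed to between 29.2 and 931 CPM, and neither of the 2 tested genes was called in any comparison by edgeR or DESeq2 or reached an unadjusted p under 0.05.

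Summed levels are given as CPM after scaling by the trimmed mean of M-values (TMM), which sets library size by the bulk of the genes. In untreated mice the variable segments summed to 450.8, 335.7, 324.1, 251.0 and 256.5 CPM. In early ND mice they summed to 375.2, 448.9, 277.7, 344.2 and 284.4 CPM, and in late ND mice to 253.9, 454.7, 358.8, 189.6 and 228.6 CPM. The groups overlapped, the late ND group held both the highest library (late 2) and the lowest (late 4), and the group means of 324 ± 80.8, 346 ± 70.6 and 297 ± 108 CPM (SD, n = 5 each) lay within the spread of any group. In bulk blood RNA, fewer B cells and less immunoglobulin RNA per cell cannot be told apart. With library totals in place of TMM the means were 259 ± 110, 301 ± 117 and 488 ± 248 CPM (SD, n = 5), and the late ND mean was the highest rather than the lowest, while the hemoglobin share of those totals was lowest in late ND mice. On that scale the groups overlapped as well.

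The 3 classes kept similar proportions. Ighv segments summed to 105 ± 28.6 CPM in untreated, 113 ± 25.5 in early ND and 95.6 ± 28.8 in late ND mice (SD, n = 5), Igkv segments to 191 ± 47.3, 201 ± 37.3 and 175 ± 64.8 CPM, and Iglv segments to 28.2 ± 5.45, 32.3 ± 9.76 and 26 ± 14.7 CPM. Lambda segments were 13% ± 0.711 of light chain variable counts in untreated, 13.7% ± 1.68 in early ND and 12.3% ± 2.15 in late ND mice (SD, n = 5), and the groups overlapped. Set against Cd79a, a signalling subunit of the B cell receptor that every B cell expresses, the variable segments held 187 ± 16.1, 185 ± 15 and 187 ± 17.1 counts per 100 counts of Cd79a in untreated, early ND and late ND mice. Across the 15 libraries this ratio stayed between 165 and 216, although the summed CPM ranged from 189.6 to 454.7.

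**Figure D1:**
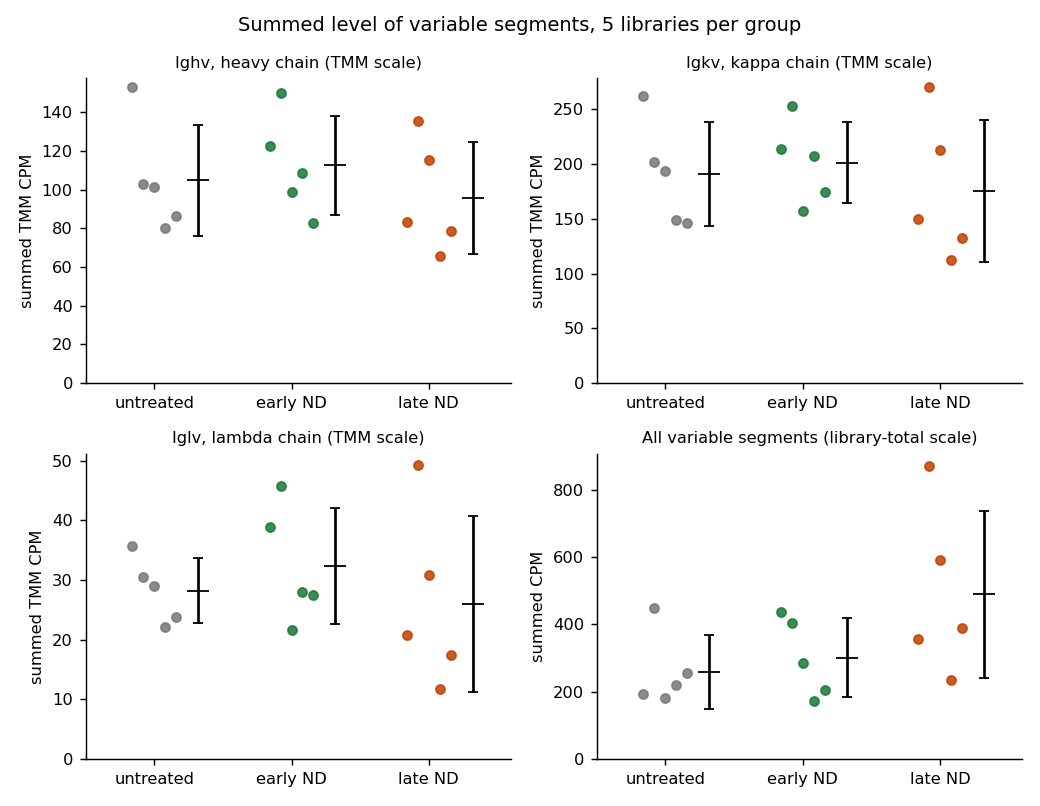
Summed CPM of the variable segments (vertical axes), for Ighv, Igkv and Iglv on the TMM scale and for all members on the scale of library totals (lower right), with 1 point per library and black marks for the group mean and its SD (n = 5). The groups overlap in each panel, with late ND means lowest on the TMM scale (95.6, 175 and 26 CPM) and highest on library totals (488 CPM).

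Within the heavy chain class, Ighv1-26 led with a mean share of 5.58% of Ighv counts over the 15 libraries. Its share was 6.54%, 5.11%, 5.65%, 3.98% and 7.82% in untreated, 7.24%, 5.83%, 3.72%, 3.31% and 4.74% in early ND, and 8.17%, 4.68%, 5.35%, 5.81% and 5.69% in late ND mice. It was the largest Ighv segment in 11 of 15 libraries, and the groups overlapped. Ighv1-26 lies at chr12:114751992-114752425 on the minus strand and differs from Ighv1-18, a member of the same family, in few positions (97.4% of 305 exon bases identical), so pairs that aligned to both would have been left out of the counts of each. Ighv9-3 followed with a mean share of 3.84%, from 2.32% in early 4 to 5.23% in early 3. Ighv1-82, Ighv1-72, Ighv1-64 and Ighv3-6 had mean shares of 2.96%, 2.83%, 2.79% and 2.69%. Ranked per exonic base, which allows levels of segments of unequal length to be compared, Ighv1-26 and Ighv9-3 kept the first places, and Ighv3-6 moved ahead of Ighv1-82.

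In the kappa class, Igkv1-117 had the largest mean share with 5.60% of Igkv counts. It took 4.13%, 4.64%, 5.48%, 4.88% and 5.49% in untreated, 6.00%, 6.00%, 6.86%, 5.37% and 5.49% in early ND, and 7.35%, 5.82%, 5.74%, 5.52% and 5.17% in late ND mice. It was the largest segment in 12 of 15 libraries, and untreated 1 and 2 held its lowest shares. Igkv10-96 (4.52%), Igkv1-110 (4.24%), Igkv6-15 (4.02%), Igkv1-135 (3.64%) and Igkv19-93 (3.09%) followed. Igkv1-110, the near-identical neighbour of Igkv1-117, took the lead in 2 libraries and had its extremes, 2.89% in late 4 and 6.07% in late 5, within one group. Per exonic base the order was the same except that Igkv6-15 moved ahead of Igkv1-110.

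**Figure D2:**
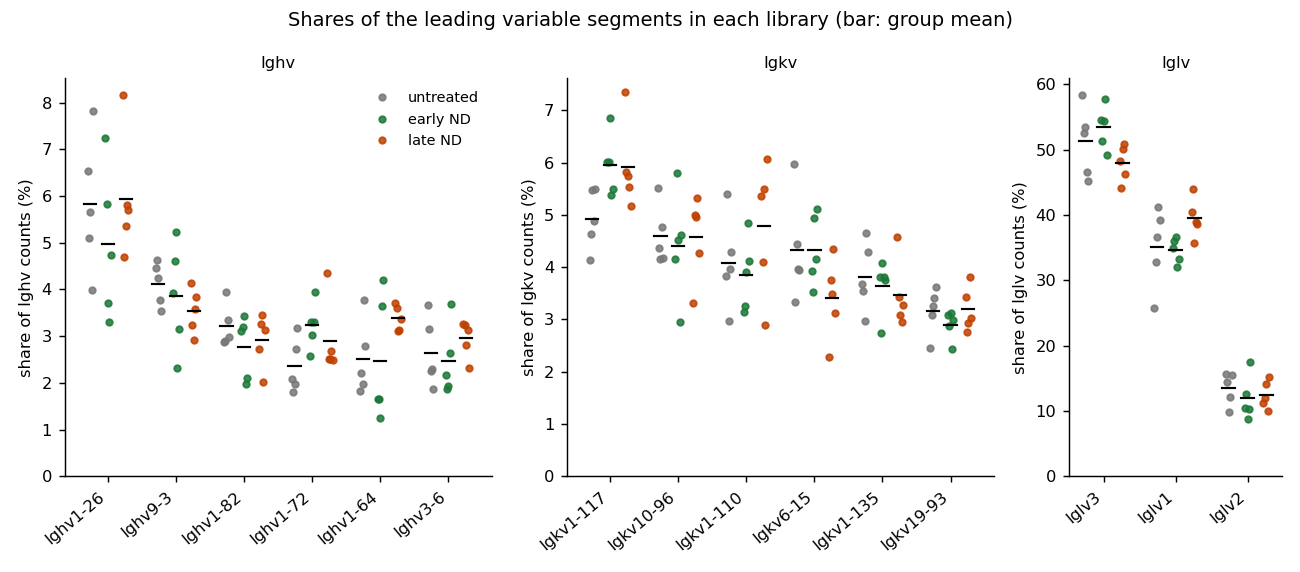
Share of the leading segments in the Ighv, Igkv or Iglv counts of a library (vertical axes, percent), each point 1 library coloured by group, each bar a group mean (n = 5). Ighv1-26 and Igkv1-117 average 5.58% and 5.60% of their classes, and the 3 groups overlap at the segments drawn.

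The lambda class has only 3 members. Iglv3, also called Vx, held the most lambda counts, with 58.4%, 52.6%, 53.5%, 46.6% and 45.3% in untreated, 54.6%, 51.3%, 54.4%, 57.7% and 49.2% in early ND, and 48.3%, 44.2%, 50.1%, 50.9% and 46.2% in late ND mice. Iglv1 held a mean of 36.4%, from 25.8% in untreated 1 to 43.9% in late 2, and Iglv2 a mean of 12.7%, from 8.86% in early 3 to 17.5% in early 5. Iglv1 was below Iglv3 in every library. All groups overlapped at the 3 segments. Because Iglv1 and Iglv2 are 97.0% identical, pairs that matched both would have been left out, whereas Iglv3 has no close relative among the members, and the part of this in the order of the shares was not tested.

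No library was taken over by a single segment. The largest share of any Ighv segment in a library was the 8.17% of Ighv1-26 in late 1 (75 counts) and the largest of any Igkv segment the 7.35% of Igkv1-117 in the same mouse (122 counts). The 4 libraries not led by Ighv1-26 were led by Ighv2-2 (untreated 4), Ighv9-3 (early 3), Ighv8-8 (early 4) and Ighv1-18 (early 5). The widest of these departures was Ighv8-8, with 5.63% in early 4 from 17 counts, which was 2.43 times its median share over the 15 libraries. The 10 leading segments together averaged 30.8% of Ighv and 35.6% of Igkv counts.

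Evenness of use was measured by the inverse Simpson index, the number of equally used segments that would give the same chance of drawing one segment in 2 draws. That chance was estimated in a form whose mean does not move with depth, which does not hold exactly for its inverse. For Ighv it was 45.6, 52.3, 47.8, 52.2 and 45.6 in untreated, 49.8, 49.9, 55.3, 51.0 and 47.0 in early ND, and 43.3, 52.6, 53.2, 52.4 and 50.7 in late ND mice. Late 1, the mouse with the largest share of Ighv1-26, had the lowest value, and the group means of 48.7 ± 3.38, 50.6 ± 3.02 and 50.4 ± 4.10 (SD, n = 5) overlapped. For Igkv the index was 42.1, 45.2, 45.5, 45.8 and 45.8 in untreated, 47.9, 47.3, 41.5, 47.8 and 45.9 in early ND, and 42.7, 45.5, 44.3, 43.9 and 44.3 in late ND mice. The Igkv means of 44.9 ± 1.58, 46.1 ± 2.67 and 44.1 ± 0.988 (SD, n = 5) lay within the range of the early ND group. Thinned to the 302 Ighv counts of the shallowest library, a library was expected to show 70.9, 72.8 and 74.4 Ighv segments on average in untreated, early ND and late ND mice. The groups overlapped. Thinning does not undo the choice of members by counts summed over all libraries. Late ND libraries held 1817.8 Ighv counts on average, against 647.4 in untreated and 656.8 in early ND mice. A rare segment of late ND mice thus passed the minimum more readily than one equally rare in the other groups. The part of this in the order of the means was not tested.

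**Figure D3:**
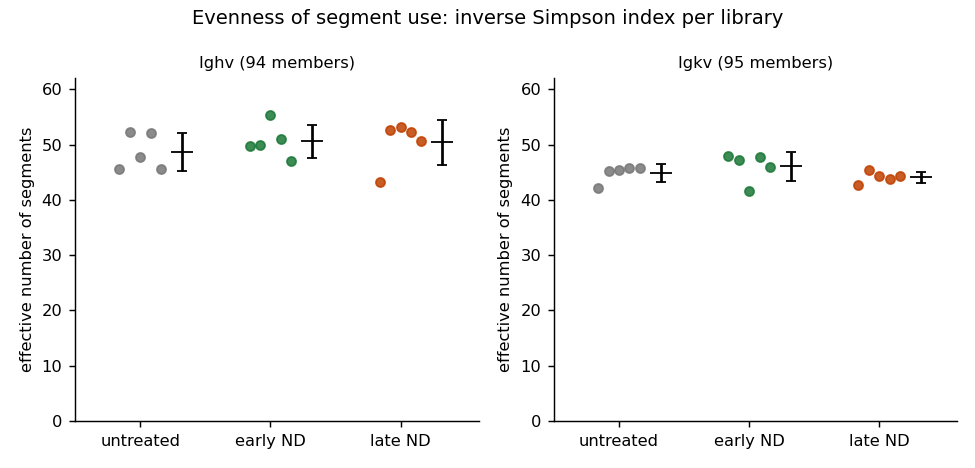
Inverse Simpson index of Ighv and Igkv segment shares (vertical axes, effective number of segments), each point 1 library, with black marks for the group mean and its SD (n = 5). All libraries lie between 41.5 and 55.3, with late 1 lowest for Ighv at 43.3.

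By family, the J558 or Ighv1 family, the largest heavy chain family with 47 members, took 56.0% of Ighv counts (51.4% to 61.8% over the 15 libraries). Igkv4, Igkv1 and Igkv6 took 15.8%, 14.6% and 13.9% of Igkv counts. Of 36 families, 0 were without overlap between late and early ND mice, 1 between late ND and untreated mice and 2 between early ND and untreated mice. Over the levels of all single genes tested, 5.91%, 5.48% and 0.576% were without overlap in these comparisons. Igkv17 and Igkv8 are named because their values were seen not to overlap, and no test was made of a family. Igkv17, with the 2 members Igkv17-121 and Igkv17-127, had 6.03% ± 0.467 of Igkv counts in untreated mice and a lower share in every treated mouse, at 4.69% ± 0.713 in early ND and 4.76% ± 0.380 in late ND mice (SD, n = 5). The lowest untreated library stood at 5.60% and the highest treated one at 5.55%. Igkv8, with 9 members, had 6.51% ± 0.851 in untreated and 9.04% ± 0.945 in early ND mice without overlap, and 7.65% ± 1.2 in late ND mice.

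The Ighv segments extend over chr12:113536547-115973713 (2437 kb), all members on the minus strand, and the Igkv segments over chr6:67532481-70681161 (3149 kb), with 35 members on the plus and 60 on the minus strand. Segments were used along the whole of both loci. Counting from the end nearest the joining segments, 3 stretches of equal length (near, middle and far) of the Ighv locus held 32.9%, 34.3% and 32.8% of Ighv counts over 36, 33 and 25 members. The corresponding stretches of the Igkv locus held 40.4%, 26.6% and 33.0% of Igkv counts over 37, 34 and 24 members. Ighv1-26 lay near the middle of its locus, 1215 kb from the near end, and Igkv1-117 lay 2582 kb from the near end of its own. Plus-strand segments, which face the same way as the kappa joining segments and join by deletion of the intervening DNA rather than by inversion, held 42.9% of Igkv counts (39.3% to 47.3%).

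**Figure D4:**
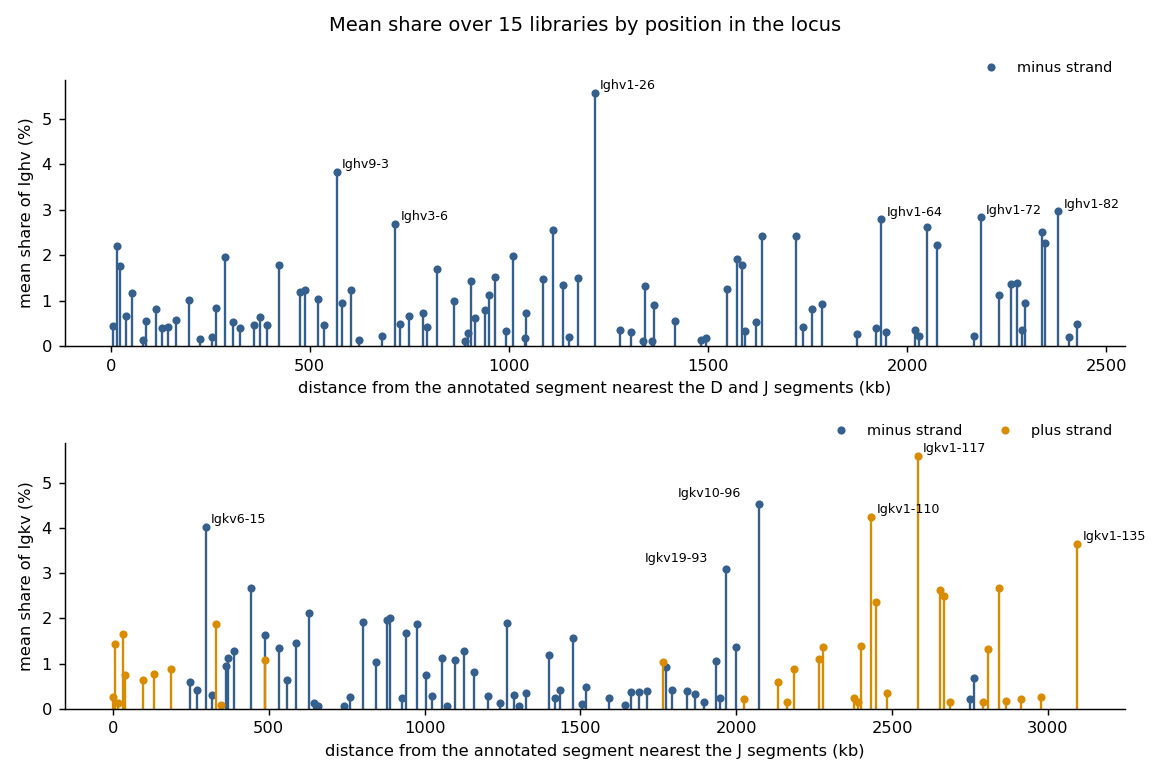
Mean share of each member over the 15 libraries (vertical axes, percent of its class) against the distance from the annotated segment nearest the joining segments (horizontal axes, kb), for Ighv above and Igkv below, with strand by colour. Members are used along both loci, with Ighv1-26 highest at 1215 kb and Igkv1-117 highest at 2582 kb.

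The scatter of single segments among mice was set against counting error, as a description. A chi-square statistic over segments and libraries, divided by its degrees of freedom, would be near 1 if repeated counts of a single pool of independent molecules were compared, and was 1.97 for Ighv and 1.88 for Igkv over the 15 libraries. Within groups it was 1.61 in untreated, 1.54 in early ND and 2.50 in late ND mice for Ighv, and 1.65, 1.65 and 2.20 for Igkv. Separate mice can differ in their segments, and read pairs amplified from one molecule are not independent, so a ratio over 1 singles out nothing. The ratio also grows with depth for a given spread among mice, and late ND libraries were the deepest, so the groups are not ranked by it. Segment profiles of mice of one group were about as alike as those of mice of different groups, with a median Morisita overlap, in which 1 marks equal shares, of 0.948 within and 0.946 between groups for Ighv and 0.973 and 0.971 for Igkv (30 and 75 pairs of libraries, which share mice).

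The segments with the widest scatter, chosen after their values were seen, were Ighv3-4, Ighv8-10 and Igkv7-33, and each had its largest share in late 4. Ighv3-4, a functional segment with 33 counts in all, had 20 of them in late 4 (2.23% of its Ighv counts) and 0 to 4 in every other library. The pseudogene Ighv8-10 had 20 counts in late 4 and 11 in late 3, and 0 to 3 in the others. Igkv7-33 had 14 counts each in late 2 and late 4, 6 in untreated 2, 3 in early 4 and 0 in the others. Each of these segments reached the 20-count minimum only through its late ND counts. Their high values in late ND libraries are thus partly a product of the filter and are a description only. Late 4 had the lowest summed variable CPM of all libraries and the largest share of Igha, the IgA constant gene, among heavy chain constant counts, at 9.91% against 0.551% to 5.82% in the other 14. A link between these values and the segments was not tested. The end of Ighv3-4 at chr12:114217198-114217266 on the minus strand, with its heptamer and nonamer in capitals, reads as follows.
Ighv3-4: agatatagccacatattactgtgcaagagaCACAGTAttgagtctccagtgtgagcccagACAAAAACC

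Single segments were then tested between groups with edgeR's quasi-likelihood test fitted over all genes, with Benjamini-Hochberg adjustment over all genes tested and a threshold of 0.05. Between late and early ND, 89 of 192 members passed the filter on low counts and 0 were called, against 4.98% of all genes tested. At an unadjusted p under 0.05 there were also 0 members, against 23.8% of all genes, and DESeq2 called 0 members, with 1 at an unadjusted p under 0.05. Members whose late and early ND values did not overlap numbered 0, against 5.91% of all genes. The median log2 fold change of the 89 members was -0.12, with 65 below 0 and 24 above, and that of all genes was 0.01. The lowest was Ighv1-7, at 1.27, 2.64, 1.5, 2.52 and 2.39 CPM in early ND and 0.54, 1.68, 1.57, 0.66 and 0.88 CPM in late ND mice. Its late ND values were the lower on average and overlapped those of early ND mice (log2 fold change -0.81 ± 0.38, SE, edgeR adjusted p = 0.221). The other members with the smallest p were Igkv14-126 (log2 fold change -0.63), Igkv12-41 (-0.59) and Igkv6-15 (-0.45) on the negative side and Igkv15-103 (0.54), Ighv1-64 (0.43), Igkv4-72 (0.23) and Igkv1-110 (0.21) on the positive side, with edgeR adjusted p from 0.291 to 0.727. Ighv1-26, the leading heavy chain segment, stood at -0.07.

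This count depends on the scaling. With library totals in place of TMM the median over all genes was 0.86 in place of 0.01, that over the 89 members was 0.73, and edgeR called 14 of 89 members higher and 0 lower. The share of all genes called higher on that scale was 67.0%. On both scales the median of the members lay below that of all genes.

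Without late 2, whose summed level was the highest, the median of the members was -0.39. Without late 2 and late 3, the late ND libraries poor in 18S sequence, it was -0.60, with 0 calls in either case. No early ND library was poor in 18S sequence. The libraries left out had the highest summed levels of the late ND group, at 454.7 and 358.8 CPM, so a lower median follows in part from their removal. Without late 2 and late 3, 23 of 85 tested members were lower at an unadjusted p under 0.05 in edgeR (27.1%, against 11% of all genes), and 0 were higher. In either direction the share of all genes at that p was 23.9%. Of 14 B cell genes on the list, which includes Ms4a1, Cd79a and Pax5, 14 were tested between late and early ND and 0 were called by edgeR (1 at an unadjusted p under 0.05), with a median log2 fold change of -0.38. DESeq2 called 1 of them, Cr2, a complement receptor. They summed to 1194 to 2067 CPM in early ND and 654 to 1846 CPM in late ND mice, and their part in the values of the segments was not tested.

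Between late ND and untreated mice, 88 members were tested by edgeR and 0 were called, against 3.0% of all genes, and DESeq2 called 0 (1 at an unadjusted p under 0.05). Groups without overlap numbered 0 among the members and 5.48% among all genes. At an unadjusted p under 0.05 there was 1 member, Ighv9-1, against 17.0% of all genes. Ighv9-1 had 1.60, 1.60, 2.29, 0.84 and 1.13 CPM in untreated and 0.45, 0.92, 1.00, 0.59 and 0.82 CPM in late ND mice. The lowest untreated mouse stood below 2 late ND mice, and the difference did not pass (log2 fold change -0.88 ± 0.34, SE, edgeR adjusted p = 0.207). Ighv2-9-1 (-1.07), Ighv10-1 (-0.61) and Igkv3-4 (-0.71) on the negative side and Ighv1-53 (0.85), Ighv5-16 (0.81), Igkv13-85 (0.65) and Ighv1-64 (0.40) on the positive side followed by p, with edgeR adjusted p from 0.367 to 0.517. The median over the 88 members was -0.09 and over all genes 0.00. With library totals these medians were 0.86 and 0.91, and 25 of 88 members were called higher and 0 lower, against 55.2% of all genes called higher.

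Between early ND and untreated mice, 62 members were tested by edgeR and 0 were called, against 0 of all genes (0%). Groups without overlap numbered 0 among the members and 0.576% among all genes. DESeq2 called 0 members, with 3 at an unadjusted p under 0.05. In edgeR, 2 members reached an unadjusted p under 0.05, against 4.44% of all genes. One was Ighv1-72, at 3.21, 1.87, 2.01, 2.19 and 2.73 CPM in untreated and 3.17, 4.95, 3.0, 3.6 and 3.26 CPM in early ND mice (log2 fold change 0.62 ± 0.25, SE, edgeR adjusted p = 0.938). In this segment 61.2% of 100-base windows also occur at another place in the 3 immunoglobulin loci, the only sequence searched, so its count rests on part of its length. The other was the leading kappa segment Igkv1-117, at 9.22 ± 1.57 CPM in untreated and 11.9 ± 2.17 CPM in early ND mice (SD, n = 5; log2 fold change 0.39 ± 0.17, SE, edgeR adjusted p = 0.938). Ighv1-53 (0.89), Igkv8-21 (0.76), Igkv3-4 (-0.73), Igkv4-55 (-0.55), Igkv12-44 (-0.44) and Igkv17-121 (-0.34) were the next by p, with edgeR adjusted p of 0.938 or 0.940.

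The lambda segments were tested in all 3 comparisons and 0 of 3 were called in each. Iglv3 had log2 fold changes of -0.44, -0.21 and 0.26 in late against early ND, late ND against untreated and early ND against untreated, Iglv1 of -0.06, 0.15 and 0.23, and Iglv2 of -0.18, -0.18 and 0.03. The late ND libraries enter the first 2 comparisons and the untreated libraries the last 2, so these values are not independent. The median standard error of the tested members in late against early ND was 0.36 on the log2 scale, and Ighv1-7 at -0.81 did not pass. The size of difference that these libraries could detect was not computed.

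**Figure D5:**
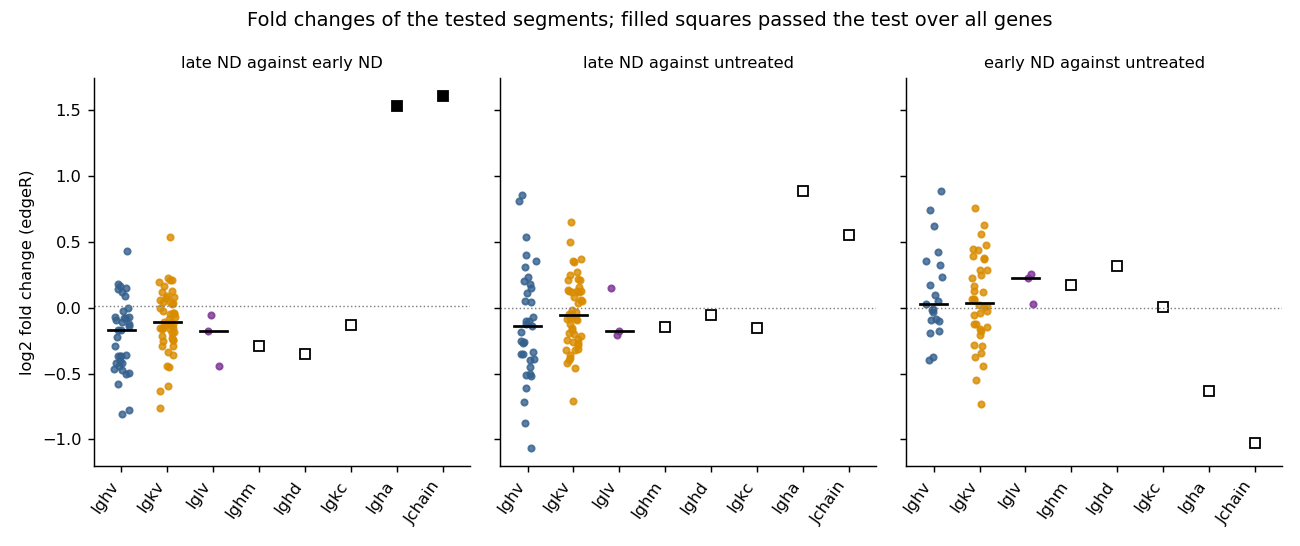
Log2 fold changes (vertical axes, edgeR) of the tested segments by class in the 3 comparisons, with bars at class medians, beside the constant genes Ighm, Ighd, Igkc and Igha and the joining chain Jchain as squares, filled where the adjusted p was under 0.05; the dotted line is the median of all genes. All segments lie between -1.07 and 0.89 and none passed, while Igha and Jchain are filled at 1.54 and 1.61 in late against early ND.

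Constant genes were read beside the variable segments, since a transcript of a rearranged gene carries both. Of 13 constant genes found, 10 were tested between late and early ND and 1, Igha, was higher in late ND mice. Igha stood at 5.46, 14.2, 16.2, 14.7 and 3.70 CPM in early ND and 14.2, 42.3, 20.8, 44.2 and 31.4 CPM in late ND mice (log2 fold change 1.54 ± 0.40, SE, edgeR adjusted p = 0.0474). The lowest late ND mouse lay within the early ND range, and untreated mice held 16.9 ± 7.29 CPM (SD, n = 5). With single libraries left out its edgeR adjusted p ran from 0.0234 to 0.131 and without the libraries poor in 18S sequence it was 0.0915. The call thus depends on the libraries included, and Igha passed in 7 of 17 alternatives. Jchain, which links IgA and IgM into polymers, was higher with it, at 3.38 ± 2.22 CPM in early ND and 9.84 ± 3.77 CPM in late ND mice (SD, n = 5; log2 fold change 1.61, edgeR adjusted p = 0.0429, from 0.0140 to 0.119 with single libraries left out and 0.0928 without the libraries poor in 18S sequence). Untreated mice held 6.88 ± 3.48 CPM of Jchain (SD, n = 5), overlapping both other groups, and it was not called in late ND against untreated mice (log2 fold change 0.56, edgeR adjusted p = 0.462) or in early ND against untreated mice (-1.03, edgeR adjusted p = 0.938). Ighm (-0.29), Ighd (-0.35) and Igkc (-0.13) did not pass in edgeR, and DESeq2 called Ighg2b as well as Igha. IgM and IgD constant genes together were 96.8% of heavy chain constant counts in untreated, 98.1% in early ND and 93.6% in late ND mice, with 97.2% to 99.1% in early ND and 87.3% to 96.8% in late ND mice without overlap. This share is named because its values were seen not to overlap, and it was not tested. The shares of Igha and of the IgG constant genes did overlap between these groups. Over the levels of all single genes tested, 5.91% were without overlap in this comparison. Between late ND and untreated mice 0 of 11 tested constant genes were called by edgeR, with 2 at an unadjusted p under 0.05, and 0 by DESeq2 (Igha 0.89, edgeR adjusted p = 0.201). Between early ND and untreated mice 0 of 8 were called by edgeR, with 0 at an unadjusted p under 0.05, and 0 by DESeq2.

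Of 14 plasma cell genes, 10 were tested between late and early ND. Jchain was higher, Tent5c, which red cell precursors also express, was lower (log2 fold change -2.53, edgeR adjusted p = 0.012), Xbp1, the regulator of the secretory program, had 0.81 (edgeR adjusted p = 0.0775) and was called by DESeq2, and the median of the list was 0.04. Hemoglobin and 18S sequence differed between the same groups, and the erythroid genes Alas2 and Hbb-bt were lower in late ND mice. The part of these values in the Tent5c result was not tested. Joining segments, which a transcript of a rearranged gene also carries, had 8 of 14 tested between late and early ND and 0 called by edgeR. At an unadjusted p under 0.05 there were 0, DESeq2 called 0, and their median log2 fold change was -0.35. Genes of rearrangement and of the surrogate light chain, which mark B cell precursors, summed to 0.161 to 1.43 CPM, with Rag2 at 0 in every library and Igll1 with 2 counts in all, and none passed the filter for testing.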

How the data were processed

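Whole blood RNA of 15 mice (5 untreated, 5 early ND, 5 late ND) was sequenced. The authors deposited raw counts of read pairs per Ensembl gene, 1 file per library, and 0 columns belonged to other samples. Per the submitters' processing notes, pairs were aligned with STAR 2.7.9, sorted with SAMtools 1.7 and counted with HTSeq 0.13.5. The labels name GRCm39, the notes also list mm10, and the counting mode, strand setting and annotation release are not given in the sources used here. HTSeq leaves out pairs that align to several places, so near-identical segments lose counts, and pairs that overlap 2 genes, which were 1.19% to 3.03% of uniquely aligned pairs. The share counted as aligned to several places was far larger. It was 64.8% to 73.1% in untreated, 66.4% to 75.2% in early ND and 44.1% to 57.9% in late ND libraries. Late ND thus lay below both other groups without overlap, and the part of this in the segment counts was not tested. Of the uniquely aligned pairs, 43.6% to 48.0% were counted on a gene in the 15 libraries. The reason for this share was not tested. Total counts per library were 5527108 to 13924361. Symbols and coordinates came from a GENCODE annotation of GRCm39, which matched 54749 of 55416 identifiers.

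The members and the gene lists were chosen with earlier results of these data known. Shares are percent of a class in a library. Groups were compared pairwise with edgeR 4.0.16 in R 4.3.3 (TMM, filterByExpr, quasi-likelihood test, Benjamini-Hochberg over all genes tested) and with DESeq2 1.42.0 as an alternative. Summed levels, shares and evenness carry no test. Named segments were the 6 leading Ighv and 6 leading Igkv segments by mean share, all Iglv members, segments whose lead in a library was 3 times their median, the members with the smallest p (4 in each direction of each comparison where fewer passed), and those next to the minimum. Alternatives were library totals, DESeq2 size factors, no filter, a fit of all 3 groups, a replicate block, other evenness measures, other member sets and single libraries left out. Scripts were tested on simulated counts. The p-values measure the spread among these mice. Replicate numbers did not pair the mice.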

Additional observations from a re-analysis of the deposited data

Results flagged for a closer look

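Of 129 groups of 5 libraries checked for a library that stands apart (43 measures in 3 groups), 7 held one, by a gap to the nearest other library of more than 0.71 of the range of the group. Chance alone gives about 1 in 20 such groups. The measures overlap in the counts they use, and no explanation was tested.

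Evenness stood apart in 2 libraries. The effective number of Ighv segments was 43.3 in late 1, against 50.7 to 53.2 in the other late ND mice, and that of Igkv segments was 42.1 in untreated 1, against 45.2 to 45.8 in the other untreated mice. Late 1 also held the largest shares of Ighv1-26 and of Igkv1-117 among the 15 libraries.

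Single segments stood apart in 4 libraries. The Ighv1-72 share was 4.36% in late 1 (40 counts), against 2.49% to 2.68% in the other late ND mice. Igkv1-135 was at 2.74% in early 2 (42 counts), against 3.75% to 4.08% in the rest of its group. Igkv3-4 held 3.82% in untreated 1 (25 counts), against 1.65% to 2.22%, and Igkv4-72 held 2.76% in late 4 (42 counts), against 1.38% to 1.7%.

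Ighv counts per 100 heavy chain constant counts were 13.8 in early 3, against 12.3 to 12.5 in the other early ND mice.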

How the results depend on the processing

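With library totals in place of TMM, 14 members were called higher in late against early ND and 25 in late ND against untreated mice, where TMM gave 0 and 0 and where 67.0% and 55.2% of all genes were called higher, and the log2 ratios of summed CPM were 0.70 and 0.92 in place of -0.22 and -0.12. On that scale log2 fold changes turned for Ighv1-7 (0.11), Igkv12-41 (0.31), Igkv14-126 (0.28) and Igkv6-15 (0.45) in late against early ND and for Ighv10-1 (0.37), Ighv9-1 (0.038) and Igkv3-4 (0.39) in late ND against untreated mice. Without the 3 libraries poor in 18S sequence Igkv1-110 (-0.23) and Igkv4-72 (-0.19) turned in late against early ND and Ighv1-64 (-0.0027) in late ND against untreated mice. The cause was not tested.

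The evenness difference depended on the index. With the exponential of the Shannon entropy, whose value rises with depth, the Ighv difference was 4.08 in late against early ND and 6.44 in late ND against untreated mice, in place of -0.16 and 1.76, and the Igkv difference in late ND against untreated mice was 2.39 in place of -0.76. At equal depth the rarefied Igkv richness differed by 1.10 there. The rarefied Ighv means given above were also higher in late ND than in untreated mice, with overlapping groups. The limit of the filter stated with those means applies to the rarefied Igkv richness as well.

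With single libraries left out 0 members were called in all 3 comparisons. In late against early ND, late ND against untreated and early ND against untreated, the log2 ratio of summed CPM then ran from -0.43 to -0.10, from -0.33 to 0.03 and from -0.01 to 0.25. The Ighv effective number differed by -1.05 to 1.62, 0.98 to 3.55 and 0.74 to 2.83, and the Igkv number by -3.10 to -1.51, -1.46 to -0.40 and 0.50 to 2.34. The scatter ratio of late ND mice, an alternative added after the data were seen, ran from 1.86 to 2.67 for Ighv and from 1.93 to 2.34 for Igkv. With the replicate number as a block 0 members were called. Deviations of same-numbered mice correlated at -0.24 to 0.58, so the numbers were not taken as pairing.

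Depth limits the single segments: the shallowest library held 302 Ighv and 577 Igkv counts, 103 of 192 members failed the filter in late against early ND, and segments with repeated sequence are counted in part.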
